A study of Mus musculus with 13 samples.

Results

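The genes described here encode the working parts of the lysosome: 10 cathepsins, 21 other acid hydrolases, 10 membrane and accessory proteins, 11 subunits of the proton pump, and the transcription factor Tfeb. The members are a list of 53 genes taken by name, matched to the non-control probes of the array through the symbol, its synonyms or the transcript's accession. All 53 had a probe, 91 probes in all, and all 53 passed the filter on dim probes, among 20546 genes tested. RNA came from macrophages grown for 6 days from the marrow of male C57BL/6J mice aged 12 to 16 weeks, in 30% conditioned medium of L929 cells. Both genotypes carried Hdac3 with loxP sites around exons 4 to 7. KO cells carried Cre driven by the lysozyme M promoter in addition, so that Cre and the loss of HDAC3 go together, while control cells had no Cre. HDAC3 is a histone deacetylase that works in corepressor complexes, and IL-4 is the cytokine used to induce alternative activation of macrophages. Cells received 10 ng/mL IL-4 or the vehicle, 0.1% bovine serum albumin, for 24 hours. The groups were KO with IL-4 (n = 3, arrays 13, 14 and 15), control with IL-4 (n = 3, arrays 9, 10 and 12), KO with vehicle (n = 3, arrays 5, 6 and 7) and control with vehicle (n = 4, arrays 1, 2, 3 and 4). Whether a group's arrays stand for separate mice or cultures is not given in the labels, so p-values measure the spread between these arrays, which may be technical.

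Lysosomes are the acidic compartments in which a cell degrades what it engulfs and what autophagy delivers. Their hydrolases are made in the endoplasmic reticulum, tagged with mannose 6-phosphate and sorted to the compartment, and a proton pump, the V-ATPase, keeps its lumen acidic enough for them to work. Macrophages, as phagocytes, hold many lysosomes, and their cathepsins also trim antigens and the invariant chain of MHC class II. TFEB and its relatives bind an E-box with flanking bases, the CLEAR element, in the promoters of many lysosomal genes.

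Levels are given as log2 of the background-corrected signal minus the log2 of the array's 75th percentile, so that a level of 0 lies at that percentile. The level of one gene cannot be set against that of another on this scale. Between 56.2% and 83.2% of the spots of an array were well above background. No spot was saturated, and all members were well above background on all 13 arrays apart from Ctse and Dnase2a (12 arrays each) and Tfeb (11 arrays). Hdac3 itself was lower in KO cells, at -3.51 ± 0.455 in KO IL-4 against -1.99 ± 0.258 in control IL-4 and -3.41 ± 0.278 in KO vehicle against -2.01 ± 0.214 in control vehicle (SD, n = 3 or 4; limma adjusted p = 0.00390 and 0.00290). It was not determined whether its probe falls within the deleted exons. All 9 macrophage markers were well above background in every group. Of these, 3 were called higher and 1 lower with HDAC3 loss in each treatment (Itgam, the CD11b chain, by 1.85 under IL-4 and 1.44 in vehicle), and with IL-4 0 were called higher and 2 lower in KO cells and 1 higher and 4 lower in control cells. Their summed signal, in units of the 75th percentile, was 530 to 570 for KO and 480 to 509 for control cells with IL-4, and 553 to 582 for KO and 564 to 617 for control cells with vehicle. No marker of neutrophils, dendritic cells, fibroblasts, lymphocytes or mast cells was called in any comparison. Of 6 tested stress genes, Fos was called higher (0.73) and Egr1 lower (-0.54) with HDAC3 loss under IL-4, and Egr1 lower (-0.74) in vehicle. With IL-4, none was called in KO cells, while in control cells Hspa1a (1.14) and Atf3 (0.63) were called higher and Fos (-0.89) lower. The summed signal of these 6 stress genes was 69.6 to 94.0 for KO and 53.2 to 64.7 for control cells with IL-4. With vehicle it was 53.7 to 67.8 for KO and 48.8 to 53.5 for control cells. Over all genes, 2.07% were called higher and 1.64% lower with HDAC3 loss under IL-4, and 2.47% and 2.30% in vehicle. With IL-4 the shares were 1.19% and 1.03% in KO and 2.81% and 2.90% in control cells. The part of these macrophage, neutrophil and stress genes in the results was not tested. On the 4 slides a group always took the same place, so place on the slide and group cannot be told apart. Slide 3 held no control IL-4 array and slide 4 held control arrays alone, so slide and genotype are partly mixed. In RNA of bulk cultures, fewer cells of a type and less RNA per cell cannot be told apart.

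The promoters of the members were searched in RefSeq windows from 250 bases before to 50 bases after a start (GRCm38.p6), which were at hand for 44 of the 53. The E-box CACGTG was searched on both strands, as were the longer forms TCACGTG and TCACGTGA, which contain it and therefore overlap with it. CACGTG lay in a window of 16 of the 44 members (36.4%), against 8.09% of all 27025 genes in the table. The counts were 14 (31.8%, against 4.29%) for TCACGTG and 7 (15.9%, against 1.12%) for TCACGTGA. Of the 9 members that passed the test in at least 1 comparison, 4 had an E-box, namely Ctsd, Ctsl, Lamp1 and Sgsh, although the Ctsl window starts 252 bases inside the gene's annotated span and is not shown. The 250 bases before the start are printed for those with an E-box at the outermost start, and for Psap, which rose and has none, with the E-box and an adjoining T or A of the longer forms in capitals.
Ctsd (chr7:142387828-142388077, minus strand, GRCm38.p6): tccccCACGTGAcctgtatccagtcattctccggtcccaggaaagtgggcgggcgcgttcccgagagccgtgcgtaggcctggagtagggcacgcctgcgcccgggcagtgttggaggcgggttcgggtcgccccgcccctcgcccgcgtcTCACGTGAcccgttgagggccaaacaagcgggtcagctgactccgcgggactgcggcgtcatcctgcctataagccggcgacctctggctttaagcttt
Lamp1 (chr8:13158911-13159160, plus strand, GRCm38.p6): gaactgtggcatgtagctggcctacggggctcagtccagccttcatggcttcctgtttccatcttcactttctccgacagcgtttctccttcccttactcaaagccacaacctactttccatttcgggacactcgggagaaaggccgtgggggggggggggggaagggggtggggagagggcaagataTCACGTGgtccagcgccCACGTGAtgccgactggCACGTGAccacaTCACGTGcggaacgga
Sgsh (chr11:119355511-119355760, minus strand, GRCm38.p6): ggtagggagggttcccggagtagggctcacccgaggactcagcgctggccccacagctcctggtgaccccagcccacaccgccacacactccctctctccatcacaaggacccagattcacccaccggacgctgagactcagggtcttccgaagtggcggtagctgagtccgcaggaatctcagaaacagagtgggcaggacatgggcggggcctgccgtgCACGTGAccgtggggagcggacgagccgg
Psap (chr10:60277378-60277627, plus strand, GRCm38.p6): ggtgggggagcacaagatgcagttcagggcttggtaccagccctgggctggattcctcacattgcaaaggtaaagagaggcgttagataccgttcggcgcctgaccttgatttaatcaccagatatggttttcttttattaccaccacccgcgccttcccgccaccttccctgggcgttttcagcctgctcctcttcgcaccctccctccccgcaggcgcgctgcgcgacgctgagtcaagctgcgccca
Counted from the start, the 4 E-boxes of Lamp1 began at -61, -45, -28 and -15, that of Sgsh at -29 and those of Ctsd at -245 and -98, the second within the symmetrical TCACGTGA. Members with and without an E-box differed little in their median change. The 16 with one had a median log2 difference of 0.080 for HDAC3 loss under IL-4 and 0.0092 for HDAC3 loss in vehicle, against 0.021 and 0.073 for the 28 without. These matches are a description of letters, and no binding was measured here.

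Loss of HDAC3 was accompanied by more mRNA for 6 lysosomal genes, and no member was called lower. Ctsl, encoding the cysteine protease cathepsin L, changed most, by 2.51-fold under IL-4 and 2.87-fold in vehicle. The rise took in the saposin precursor Psap, the aspartic protease Ctsd and the membrane glycoprotein Lamp2 in both treatments, the heparan sulfatase Sgsh under IL-4, and Lamp1 in vehicle. With slide as a fixed block, Ctsl and Psap kept their calls in both treatments and Sgsh its call under IL-4. The calls of Ctsd (adjusted p = 0.149 under IL-4 and 0.102 in vehicle), Lamp2 (0.101 and 0.0647) and Lamp1 (0.0632 in vehicle) were lost there. Most of the lysosome's enzymes and its pump showed small differences that did not pass the test. Under IL-4, 5 of the 53 members were called higher (2.07% of all genes were) and 0 lower (1.64% of all genes). In vehicle, 5 were called higher (2.47% of all genes) and 0 lower (2.30%). At an unadjusted p under 0.05 in limma 1 member (Ids) was lower under IL-4 (7.35% of all genes) and 3 (Ids, Idua and Cln3) were lower in vehicle (6.20%). The median member differed by 0.11 under IL-4 and 0.073 in vehicle on the log2 scale, against -0.020 and 0.024 over all genes. These medians moved with the scaling. With quantile normalization they were 0.069 and 0.022, against -0.022 and 0.0063 over all genes. With median scaling they were 0.15 and 0.055, against 0.013 and 0.0060. The arrays of KO and control did not overlap for 13 members under IL-4 (24.5%, against 17.9% of all genes) and for 16 in vehicle (30.2%, against 17.0%). Of these, the KO arrays were the lower ones for 2 members under IL-4 (Ids and Atp6ap1) and 4 in vehicle (Hexa, Ids, Cln3 and Cd68). Ids, iduronate sulfatase, differed by -0.22 under IL-4 and -0.25 in vehicle, and 2 dimmer kept probes of it gave -0.53 and -0.59, and -0.22 and -0.057. The plot of KO minus control differences shows the called members beside the rest. For 49 members under IL-4 and 48 in vehicle the 95% interval of the difference lay within 1 log2 unit of 0. All tests are limma's. A gene was called where its p, adjusted over the 20546 genes by Benjamini-Hochberg, was under 0.05. The 2 genotype comparisons share no arrays, but each shares its groups with the comparisons of IL-4 described further on.

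**Figure D1:**
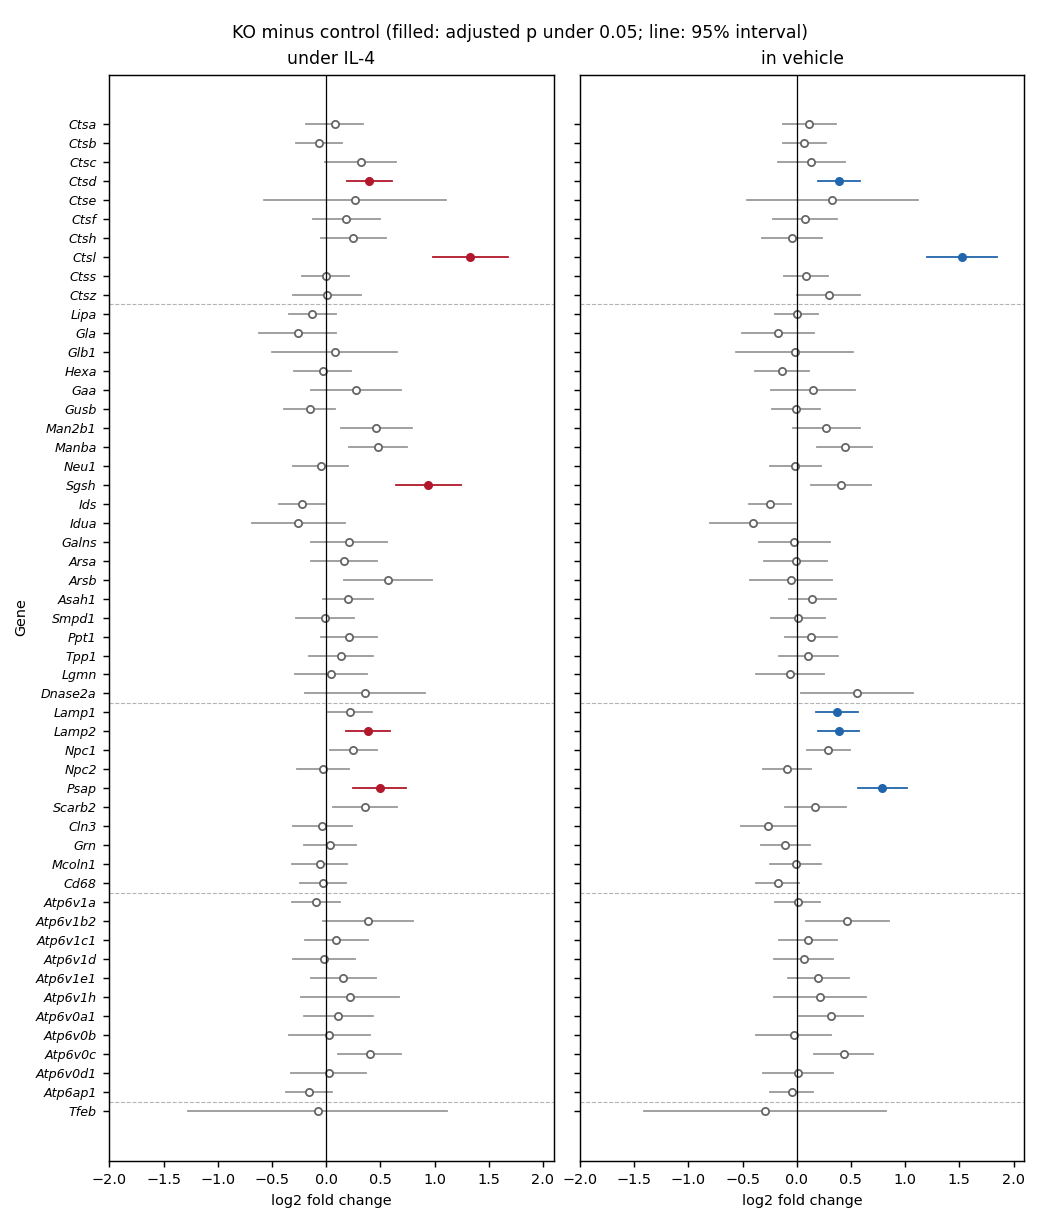
Log2 difference of KO minus control for the 53 members, under IL-4 (left) and in vehicle (right), with the 95% interval as a line. Filled points passed an adjusted p under 0.05, and dashed lines part cathepsins, other hydrolases, membrane and accessory proteins, pump subunits and Tfeb. Ctsl stands farthest to the right in both panels, at 1.33 and 1.52.

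Among the cathepsins, Ctsl had levels of 5.96, 6.34 and 5.93 on the KO IL-4 arrays, against 4.95, 4.56 and 4.73 on the control IL-4 arrays. In vehicle its levels were 5.80, 5.97 and 5.50 in KO, against 4.29, 4.06, 4.36 and 4.23 in control cells. In each treatment the lowest KO array lay well above the highest control array. The log2 difference was 1.33 under IL-4 (SE 0.158, adjusted p = 0.000882) and 1.52 in vehicle (SE 0.148, adjusted p = 0.000177). Within a slide, where a group has at most 1 array, it was 1.01 and 1.77 under IL-4 and 1.51, 1.91 and 1.14 in vehicle. The call held under all 26 alternatives in both treatments. Its probe lies at chr13:64465287-64465346 in the mm9 build that the files use, for which no annotation of exons was used here.
Ctsd, the main aspartic protease of the lysosome, had 7.52, 7.72 and 7.64 in KO IL-4 against 7.35, 7.10 and 7.23 in control IL-4 cells, and 7.55, 7.61 and 7.57 in KO vehicle against 7.25, 7.15, 7.21 and 7.13 in control vehicle cells (probe at chr7:149561962-149562021). The groups did not overlap in either treatment, at differences of 0.40 (SE 0.0942, adjusted p = 0.0394) and 0.39 (SE 0.0881, adjusted p = 0.0271). A second, dimmer Ctsd probe gave 0.93 and 0.82. The Ctsd call was less firm than that of Ctsl. Under IL-4 it was lost without any 1 of arrays 1, 2, 3, 4, 5, 6, 7, 10, 12, 14 or 15 (adjusted p from 0.0560 to 0.156), and in vehicle without any 1 of arrays 2, 3, 4, 5, 6 or 7 (0.0645 to 0.128). In vehicle the difference was 0.17 with the authors' deposited values and with quantile normalization (adjusted p = 0.432 and 0.461), and 0.61 as a mean of both probes.

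No call was made between genotypes for the other 8 cathepsins. Ctss, the protease that trims the invariant chain in antigen-presenting cells, had 8.11, 8.04 and 8.25 in KO IL-4 against 8.17, 8.17 and 8.08 in control IL-4 cells. Its levels in vehicle were 8.09, 8.08 and 8.15 in KO and 7.85, 8.10, 8.0 and 8.15 in control cells, and the 4 groups overlapped. The 95% interval of the KO minus control difference ran over -0.22 to 0.22 under IL-4 and -0.12 to 0.29 in vehicle, so a change of the size seen for Ctsl lies outside it. Ctsb, an endo- and exopeptidase, was as even on its brightest probe, with 8.46, 8.33 and 8.60 in KO IL-4, 8.51, 8.50 and 8.58 in control IL-4, 8.38, 8.50 and 8.57 in KO vehicle and 8.34, 8.48, 8.40 and 8.43 in control vehicle cells. A second, dimmer Ctsb probe differed from it and gave 0.89 under IL-4 and 0.61 in vehicle. Averaged over both kept probes, Ctsb passed the test, at 0.41 under IL-4 and 0.34 in vehicle. Ctsh, an aminopeptidase, had 5.21, 5.67 and 5.46 in KO IL-4, 5.41, 5.05 and 5.13 in control IL-4, 5.27, 5.33 and 5.50 in KO vehicle and 5.34, 5.34, 5.46 and 5.49 in control vehicle cells. Its genotype difference was 0.25 (adjusted p = 0.440) and -0.044 (adjusted p = 0.987). Ctsf, a further cysteine protease, had -1.18, -1.40 and -1.48 in KO IL-4, -1.36, -1.67 and -1.59 in control IL-4, -1.34, -1.56 and -1.68 in KO vehicle and -1.35, -1.66, -1.60 and -1.80 in control vehicle cells. Ctse, an aspartic protease of endosomes, was dim and uneven, with -3.22, -2.62 and -2.54 in KO IL-4, -3.30, -3.12 and -2.77 in control IL-4, -3.36, -2.89 and -2.17 in KO vehicle and -3.23, -2.78, -2.51 and -4.01 in control vehicle cells. Neither Ctsf nor Ctse separated the genotypes in any treatment. The Ctse intervals, -0.57 to 1.11 and -0.46 to 1.11, are the widest among the cathepsins.

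Of the 10 membrane and accessory proteins, Psap, Lamp2 and, in vehicle, Lamp1 rose with HDAC3 loss. Psap is cut into the saposins, which help hydrolases reach their sphingolipid substrates. Its levels were 7.31, 7.44 and 7.37 in KO IL-4 against 6.92, 6.72 and 7.00 in control IL-4 cells, and 7.29, 7.29 and 7.14 in KO vehicle against 6.58, 6.29, 6.40 and 6.55 in control vehicle cells (probe at chr10:59764825-59764884). Every KO array was above every control array of either treatment. The log2 difference was 0.49 under IL-4 (SE 0.110, adjusted p = 0.0292) and 0.79 in vehicle (SE 0.103, adjusted p = 0.000982). Within slides it was 0.39 and 0.71 under IL-4 and 0.71, 1.0 and 0.75 in vehicle. The vehicle call held under all 26 alternatives. The call under IL-4 was lost without any 1 of arrays 5, 9, 10, 12, 13, 14 or 15 (adjusted p from 0.0501 to 0.121). A second Psap probe gave 0.80 and 1.06.
LAMP-1 and LAMP-2 are the most abundant glycoproteins of the lysosome's membrane. Lamp2 had 7.44, 7.35 and 7.40 in KO IL-4 against 7.18, 6.91 and 6.94 in control IL-4 cells, and 7.30, 7.26 and 7.29 in KO vehicle against 6.93, 6.89, 6.83 and 6.94 in control vehicle cells (probe at chrX:35758309-35758368). Groups did not overlap, and the difference was 0.39 (SE 0.0926, adjusted p = 0.0404) and 0.39 (SE 0.0866, adjusted p = 0.0255). Another bright Lamp2 probe, at chrX:35772774-35772833, gave 0.17 and 0.10. As a mean over its probes, Lamp2 in vehicle had an adjusted p of 0.116. Without any 1 of the 7 arrays in vehicle the vehicle call was lost (adjusted p from 0.0548 to 0.117), and under IL-4 the call was lost without any 1 array other than array 9 (0.0585 to 0.158). Lamp1 had 7.80, 7.66 and 7.69 in KO IL-4 against 7.64, 7.42 and 7.41 in control IL-4 cells, and 7.75, 7.67 and 7.67 in KO vehicle against 7.36, 7.26, 7.31 and 7.37 in control vehicle cells (probe at chr8:13175136-13175195). It passed the test in vehicle, at 0.37 (SE 0.0867, adjusted p = 0.0314), and not under IL-4, at 0.22 (adjusted p = 0.275). Leaving out any 1 of the 7 vehicle arrays ended the vehicle call (0.0658 to 0.162), and with quantile normalization or the authors' deposited values its difference there was 0.15. The genotype differences of the other 7 proteins, among them the cholesterol transporters Npc1 and Npc2, the receptor Scarb2 that carries glucocerebrosidase, and the channel Mcoln1, ran from -0.061 to 0.36 under IL-4 and from -0.26 to 0.29 in vehicle, with no call.

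Of the 21 other hydrolases, Sgsh was called higher in KO cells under IL-4, and none was called in vehicle. SGSH is the sulfohydrolase that starts the removal of sulfated glucosamine from heparan sulfate. Its levels were 0.80, 1.20 and 0.94 in KO IL-4 against 0.058, 0.17 and -0.11 in control IL-4 cells, and 1.35, 1.40 and 1.71 in KO vehicle against 1.13, 1.17, 1.08 and 0.94 in control vehicle cells (probe at chr11:119204956-119205015). The control IL-4 arrays stood alone at the bottom, below all 10 others. Under IL-4 the difference of KO minus control was 0.94 (SE 0.136, adjusted p = 0.00264), a 1.92-fold rise. In vehicle it was 0.41 (SE 0.127, adjusted p = 0.117), without overlap of the arrays and without passing the test. With the spread of the compared groups alone, the Sgsh call under IL-4 was lost (adjusted p = 0.0750).
Manba, which splits off mannose from glycoproteins, came nearest to a call in both treatments. It had 2.61, 2.82 and 2.43 in KO IL-4 against 2.20, 2.04 and 2.19 in control IL-4 cells, and 2.46, 2.48 and 2.18 in KO vehicle against 2.04, 1.85, 1.89 and 1.95 in control vehicle cells. The arrays did not overlap, at 0.48 (adjusted p = 0.0580) and 0.44 (adjusted p = 0.0523), and Manba passed the test under 9 of the 26 alternatives under IL-4 and 10 in vehicle. The remaining 19 ran from -0.26 (Gla, alpha-galactosidase) to 0.57 (Arsb, arylsulfatase B) under IL-4 and from -0.41 (Idua, alpha-iduronidase) to 0.56 (Dnase2a, the acid DNase) in vehicle. The median hydrolase differed by 0.14 under IL-4 and by -0.0089 in vehicle.

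No pump subunit was called between genotypes. The median of the 11 was 0.094 under IL-4 and 0.10 in vehicle, and 8 of 11 under IL-4 and 9 of 11 in vehicle were above 0. Under IL-4 the largest difference was that of Atp6v0c, the proteolipid that forms the ring of the membrane sector, and in vehicle that of Atp6v1b2 (0.47, adjusted p = 0.225), whose arrays are given with the response to IL-4. Atp6v0c had 3.63, 3.82 and 3.45 in KO IL-4 against 3.14, 3.18 and 3.38 in control IL-4 cells, and 3.61, 3.52 and 3.36 in KO vehicle against 3.10, 2.83, 3.21 and 3.10 in control vehicle cells. Groups did not overlap, at 0.40 (adjusted p = 0.155) and 0.43 (adjusted p = 0.0817). Atp6v0c passed the test under 5 of the 26 alternatives in vehicle. Tfeb, the factor that drives the CLEAR genes, was dim, with -2.71, -3.07 and -3.21 in KO IL-4, -3.35, -2.75 and -2.65 in control IL-4, -3.00, -2.77 and -3.27 in KO vehicle and -1.53, -1.92, -3.27 and -4.16 in control vehicle cells. The 4 control vehicle arrays alone spanned more than all the others together, and the interval of the genotype difference, -1.27 to 1.11 under IL-4 and -1.41 to 0.82 in vehicle, holds changes of either sign.

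Counts of calls between genotypes moved when single arrays were left out. Under IL-4 the 5 members called higher became 2 without array 5, 10, 12 or 14 and 3 without array 1, 2, 3, 4, 6 or 15. In vehicle the 5 became 2 without array 2, 3, 4, 5 or 6 and 3 without array 1 or 7. Counts over all genes are not given for these fits, so the moves cannot be set beside a share over all genes.

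IL-4 changed 2 members in KO cells and 5 in control cells. In control cells it raised Atp6v0a1, a subunit of the pump's membrane sector, by 2.68-fold, and to a lesser extent the cathepsin Ctsz and Psap. It lowered Ctsc, the dipeptidyl peptidase that activates granule proteases, by 2.25-fold, and Sgsh by 2.06-fold. In KO cells Atp6v0a1 rose 2.33-fold and Ctsc fell 1.98-fold. In KO cells 1 member was called higher (1.19% of all genes) and 1 lower (1.03%). In control cells 3 members were called higher (2.81% of all genes) and 2 lower (2.90%). The median member differed by 0.17 in KO and 0.11 in control cells, against -0.044 and 0.010 over all genes, and 43 and 41 of the 53 were above 0. Among all genes 42.6% in KO and 51.9% in control cells were above 0. With quantile normalization the members' medians were 0.12 in KO and 0.081 in control cells, against -0.024 and 0.011 over all genes. With median scaling they were 0.25 and 0.15, against 0.044 and 0.046. Arrays with IL-4 and with vehicle did not overlap for 18 members in KO (34.0%, against 18.3% of all genes) and 17 in control cells (32.1%, against 16.8%). The 2 comparisons share no arrays. The plot of IL-4 minus vehicle differences gives the values and intervals of all members.

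**Figure D2:**
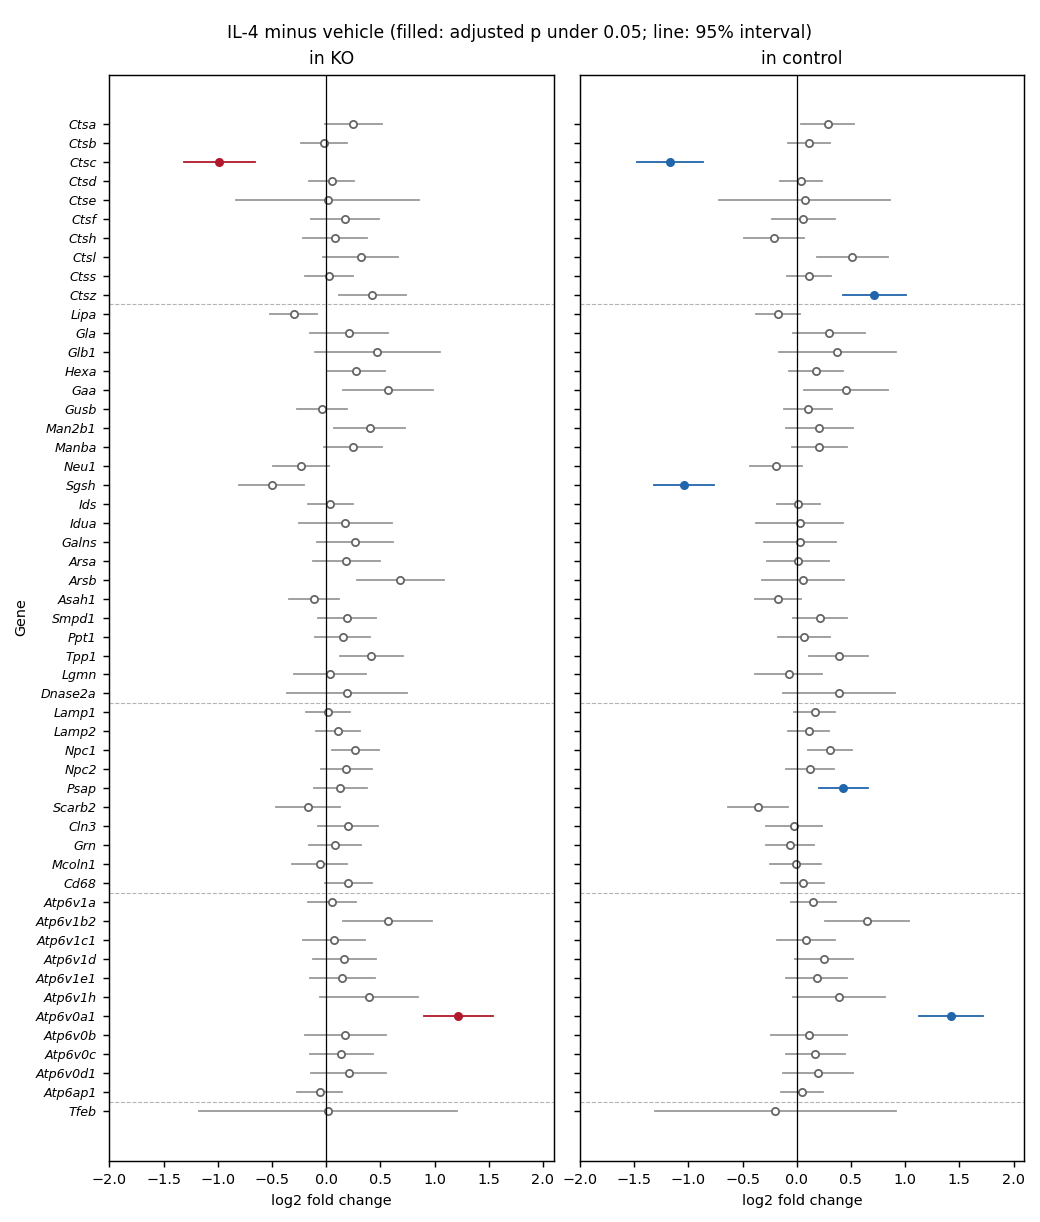
Log2 difference of IL-4 minus vehicle for the 53 members, in KO (left) and in control cells (right), with the 95% interval as a line. Filled points passed an adjusted p under 0.05. Atp6v0a1 stands farthest to the right, at 1.22 and 1.42, and Ctsc farthest to the left, at -0.99 and -1.17.

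The pump's a1 subunit, Atp6v0a1, belongs to the isoforms that place the V-ATPase in particular membranes and form its proton channel with the c ring. It had levels of 2.46, 2.85 and 2.39 in KO IL-4 against 1.46, 1.48 and 1.1 in KO vehicle cells (probe at chr11:100924471-100924530). In control cells it had 2.47, 2.36 and 2.54 with IL-4 against 0.97, 0.95, 1.03 and 1.18 with vehicle. All 6 arrays with IL-4 were above all 7 with vehicle. The difference was 1.22 in KO (SE 0.144, adjusted p = 0.000895) and 1.42 in control cells (SE 0.135, adjusted p = 6.35e-05). Within slides it was 1.0, 1.37 and 1.29 in KO and 1.5, 1.41 and 1.36 in control cells. The control call held under all 26 alternatives, and the KO call under all but the fit of the compared groups alone (adjusted p = 0.0560).
No other subunit was called. Atp6v1b2, the B subunit of the sector that splits ATP, had 1.37, 1.26 and 0.88 in KO IL-4 against 0.82, 0.75 and 0.25 in KO vehicle cells, and 0.80, 0.62 and 0.94 in control IL-4 against 0.36, -0.15, 0.21 and 0.14 in control vehicle cells. Neither pair of groups overlapped, at 0.57 (adjusted p = 0.199) and 0.65 (adjusted p = 0.0578), and 8 of the 26 alternatives called it in control cells. All 11 subunits in control cells and 10 of 11 in KO cells had a difference above 0, with medians of 0.17 in KO and 0.19 in control cells. The second d subunit, Atp6v0d2, an isoform enriched in osteoclasts and taken from the list of other pump genes, rose 3.29-fold with IL-4 in control cells (adjusted p = 0.000193) and 2.17-fold with HDAC3 loss in vehicle (adjusted p = 0.00478). Its levels were 5.50, 5.56 and 5.35 in KO IL-4, 5.36, 5.29 and 5.37 in control IL-4, 4.86, 5.0 and 4.37 in KO vehicle and 3.79, 3.11, 3.72 and 3.87 in control vehicle cells. Of the other 11 tested genes of that list, none was called in any comparison.
Markers of osteoclasts, multinucleate relatives of macrophages that use the pump to dissolve bone, were mostly not called. With IL-4, 1 of 7 (Ocstamp, needed for cell fusion) was called higher in KO cells and 2 of 7 (Ocstamp and the fusion receptor Dcstamp) in control cells, and 0 of 7 were called with HDAC3 loss in either treatment. Over all genes 1.19% were called higher with IL-4 in KO and 2.81% in control cells. Dcstamp differed by 1.26 in control cells. Ocstamp was well above background on all 6 arrays with IL-4, but on 1 of 3 KO and 1 of 4 control arrays with vehicle. It thus entered the test through the IL-4 arrays alone, which favours a call in this direction, so no size is given for it. The counts that hold it are no result about the osteoclast markers as a set. Apart from Ocstamp, only Dcstamp in control cells was called. The summed signal of the 7, in units of the array's 75th percentile, ran over 3.28 to 4.63 for KO cells with IL-4, 2.71 to 4.04 for control cells with IL-4, 2.12 to 3.02 for KO cells with vehicle and 1.68 to 2.22 for control cells with vehicle. Of the 7, 6, 5, 6 and 3 were well above background on every array of those groups in the same order. The part of these cells in the change of pump genes was not tested.

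Ctsc had 0.35, 0.45 and 0.65 in KO IL-4 against 1.28, 1.35 and 1.78 in KO vehicle cells, and 0.21, 0.29 and -0.0060 in control IL-4 against 1.14, 1.38, 1.45 and 1.36 in control vehicle cells (probe at chr7:95458436-95458495). All IL-4 arrays were below all vehicle arrays. It fell by 0.99 on the log2 scale in KO (SE 0.150, adjusted p = 0.00432) and by 1.17 in control cells (SE 0.140, adjusted p = 0.000361). Within slides the difference was -0.94, -0.90 and -1.13 in KO and -0.94, -1.09 and -1.37 in control cells. In KO cells the call was lost with the compared groups alone (adjusted p = 0.0929), and in control cells it held under all 26 alternatives.
Ctsz, a carboxypeptidase also called cathepsin X, had 5.25, 5.48 and 5.16 in KO IL-4 against 4.92, 4.96 and 4.73 in KO vehicle cells, and 5.55, 5.07 and 5.25 in control IL-4 against 4.69, 4.38, 4.62 and 4.60 in control vehicle cells (probe at chr2:174253228-174253287). The control difference was 0.72 (SE 0.133, adjusted p = 0.00693) and held under all 26 alternatives. In KO cells the difference was 0.43 and did not pass (adjusted p = 0.197). Ctsa, the carboxypeptidase that protects beta-galactosidase and neuraminidase in a complex, had 4.05, 4.44 and 4.23 in KO IL-4 against 4.05, 3.97 and 3.95 in KO vehicle cells, and 4.36, 4.05 and 4.07 in control IL-4 against 3.88, 3.83, 3.83 and 3.96 in control vehicle cells. Its difference, 0.25 in KO and 0.29 in control cells, did not pass (adjusted p = 0.436 and 0.235). Ctsl, described above for the genotypes, differed by 0.32 in KO and 0.51 in control cells with IL-4 (adjusted p = 0.453 and 0.0745). The other 6 cathepsins ran from -0.021 to 0.18 in KO and from -0.21 to 0.11 in control cells, with no call.

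Sgsh, whose levels are given above, differed between IL-4 and vehicle by -0.50 in KO (adjusted p = 0.0977) and by -1.04 in control cells (SE 0.127, adjusted p = 0.000420). The arrays did not overlap in either genotype, and the call in control cells held under all 26 alternatives. Within slides the difference was -0.55, -0.20 and -0.77 in KO and -1.07, -1.0 and -1.05 in control cells. Psap rose by 0.43 in control cells (SE 0.103, adjusted p = 0.0307), against 0.13 in KO cells, which did not pass (adjusted p = 0.687). The Psap call was lost without array 2, 3, 5, 9 or 12 (adjusted p from 0.0504 to 0.156). Without array 14, 5 members were called higher in control cells in place of 3. Without array 9 or 13, 2 were called higher in KO cells in place of 1. Counts over all genes are not given for these fits either. The other 20 hydrolases ran from -0.30 (Lipa, the acid lipase that frees cholesterol from its esters) to 0.69 (Arsb) in KO and from -0.19 (Neu1, a neuraminidase) to 0.45 (Gaa, the acid glucosidase that degrades glycogen) in control cells. The 9 membrane and accessory proteins apart from Psap ran from -0.17 to 0.27 in KO and from -0.36 to 0.31 in control cells. Tfeb differed by 0.018 in KO and -0.20 in control cells, with intervals of -1.17 to 1.21 and -1.31 to 0.92.

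**Figure D3:**
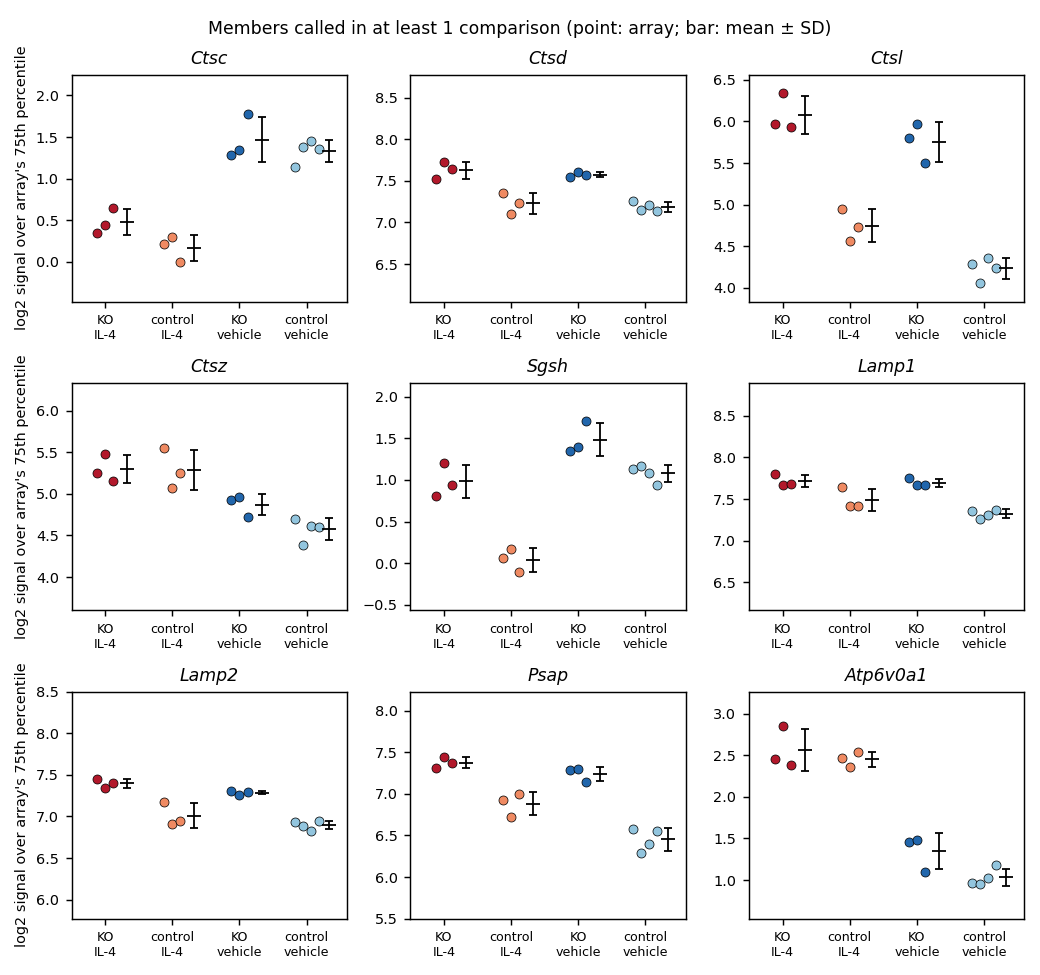
Levels of the 9 members called in at least 1 comparison, as log2 signal over the array's 75th percentile, with 1 point for each array and the mean ± SD of the group beside it. Every panel spans the same height on its axis. KO arrays lie above control arrays of the same treatment for Ctsl, Psap and Sgsh, and IL-4 arrays lie above vehicle arrays for Atp6v0a1 and below them for Ctsc.

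Whether the response to IL-4 differed between KO and control cells was tested directly. No member was called in this interaction (1 of 20546 genes was, 0.00487%), and 2 of 53 had an unadjusted limma p under 0.05, against 3.90% of all genes. They were Sgsh, at 0.54 (95% interval 0.13 to 0.94, adjusted p = 0.999), and Arsb, at 0.63 (95% interval 0.072 to 1.18, adjusted p = 0.999). Arsb, which removes sulfate from dermatan sulfate, had -0.86, -0.55 and -0.92 in KO IL-4 against -1.33, -1.59 and -1.46 in KO vehicle cells, and -0.90, -1.41 and -1.73 in control IL-4 against -1.42, -1.29, -1.37 and -1.54 in control vehicle cells. Its value turned to -0.061 as a mean of its 2 kept probes. So the calls of Ctsz, Psap and Sgsh in control cells and not in KO cells are no evidence of a difference between the genotypes. The intervals of the interaction were -0.72 to 0.14 for Ctsz, -0.63 to 0.033 for Psap, -0.67 to 0.28 for Ctsl and -0.63 to 0.23 for Atp6v0a1. For 50 of the 53 members the interval lay within 1 log2 unit of 0.

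Members shared ups and downs between arrays of a group. Array 14 was the highest of the KO IL-4 arrays for 35 of 53 members (37.1% of all genes), array 9 the highest and array 10 the lowest of control IL-4 for 34 members each (42.7% and 34.4%), array 7 the lowest of KO vehicle for 35 (41.4%), and array 2 the lowest of control vehicle for 30 (29.0%). The neutrophil marker S100a9 was likewise highest of its group on arrays 14 (2.81) and 9 (2.89). It was lowest of its group on arrays 10 (0.85), 7 (0.47) and 2 (0.97). A link between S100a9 and the members was not tested. The members' median SD within a group came to 0.200 for KO cells with IL-4, 0.140 for control cells with IL-4, 0.0928 for KO and 0.102 for control cells with vehicle, against 0.244, 0.186, 0.149 and 0.180 over all genes. The heat map of the members on each array shows both this and the few strong changes.

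**Figure D4:**
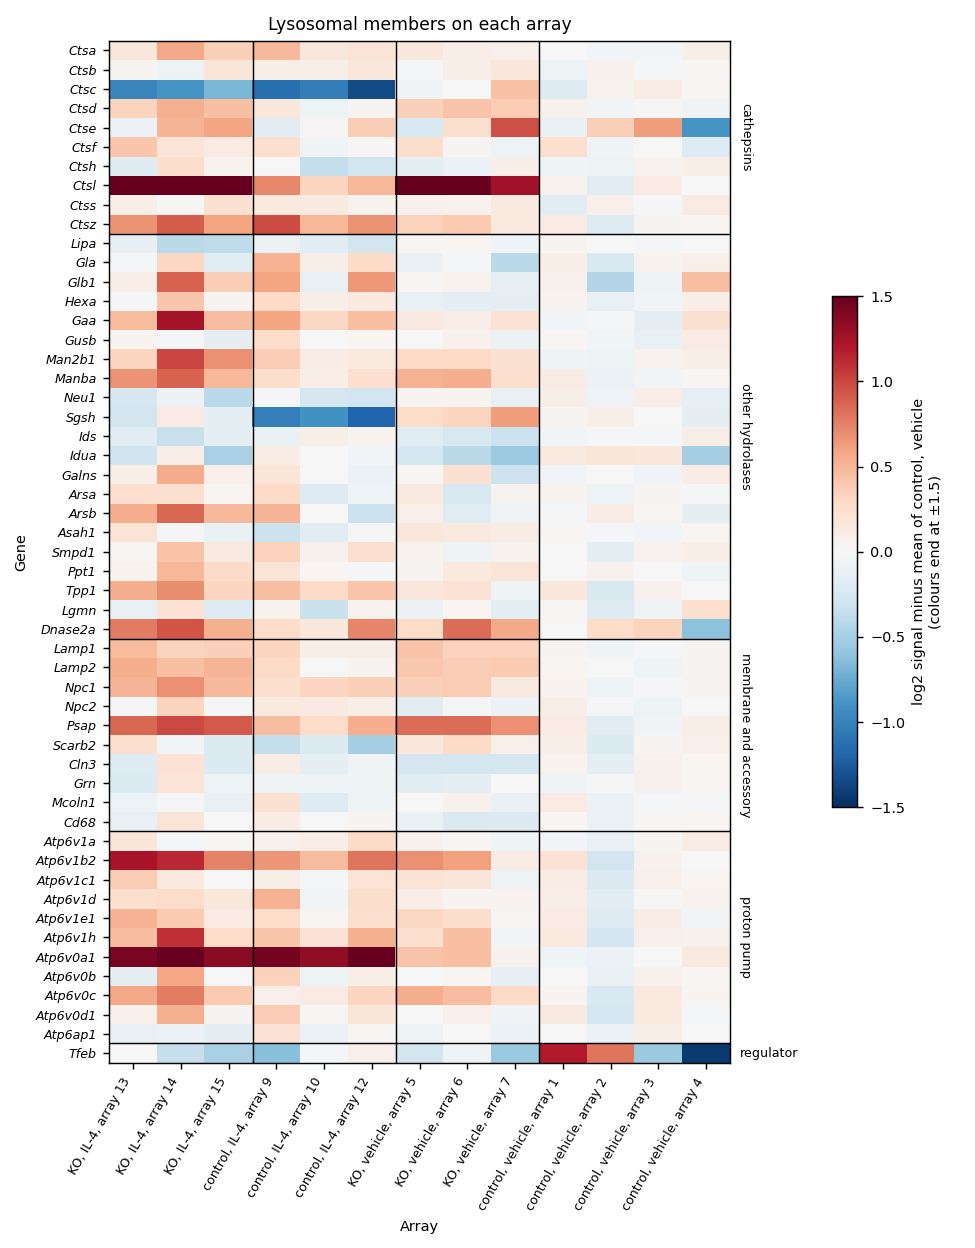
Each row is a member and each column an array, coloured by the log2 level minus the mean of the control vehicle arrays (red higher, blue lower, colours ending at 1.5). Lines part the groups and the classes of members. Ctsl, Psap and Atp6v0a1 form red blocks, Ctsc a blue block under IL-4 and Sgsh a blue block in the control IL-4 arrays, while Tfeb is uneven among the control vehicle arrays.

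Genes around the members were described from lists that were drawn up with earlier results of these data known. Of 52 tested genes for other lysosomal proteins, 3 were higher and 1 lower with HDAC3 loss under IL-4 (2.07% and 1.64% of all genes). In vehicle 5 were higher and 1 lower (2.47% and 2.30%). Litaf, a membrane protein of late endosomes, rose 1.52-fold under IL-4 (adjusted p = 0.00253) and 1.73-fold in vehicle (adjusted p = 0.000251). Slc11a1, a metal transporter of phagosomes, and Pld3 rose by 0.84 and 0.66 under IL-4, where the mannosidase Man2b2 fell by 0.48. These 3 calls were lost in 14 (Slc11a1), 17 (Pld3) and 15 (Man2b2) of 26 alternatives, while that of Litaf was lost in 1 under IL-4 and 0 in vehicle. In vehicle the phospholipase Pla2g15 (0.55) and the tetraspanin Cd63 (0.54) rose too, with calls lost in 2 and 10 of 26 alternatives. With IL-4, 2 of the 52 rose in KO cells (1.19% of all genes did), among them Pla2g15 (0.66), and 0 fell (1.03%). In control cells 7 rose and 2 fell (2.81% and 2.90% of all genes). Among them Pla2g15 (0.97) and Litaf (0.51) rose, and the lysozyme gene Lyz2 (-0.41) fell. The medians of the list were 0.068 and 0.059 for HDAC3 loss under IL-4 and in vehicle, and 0.19 and 0.14 for IL-4 in KO and control cells.

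Among endogenous inhibitors of cathepsins, 4 genes were called. Cst7, cystatin F, which is delivered to lysosomes and inhibits cathepsin C, was not well above background on any vehicle array. It had -2.91, -3.66 and -3.44 in KO IL-4 against -1.16, -1.67 and -1.58 in control IL-4 cells, where it was well above background on 2 and 3 of the 3 arrays. It thus entered the test through the control IL-4 arrays alone, and with every probe in the fit its adjusted p was 0.00153 for IL-4 in KO cells, 3.21e-05 for IL-4 in control cells and 0.00328 for HDAC3 loss under IL-4. Set against a floor for the vehicle arrays, its mean with IL-4 was 1.91-fold higher in KO cells and 5.57-fold higher in control cells. The KO mean takes in an IL-4 array not well above background, so the KO ratio is no lower bound. The measured vehicle means were -5.51 ± 0.189 in KO (SD, n = 3) and -4.70 ± 0.357 in control cells (SD, n = 4). For these ratios a vehicle array was given the higher of its own Cst7 signal and its lowest signal well above background. That floor is not a detection limit measured for the Cst7 probe. Ctla2a and Ctla2b, which resemble the inhibitory propeptide of cathepsins and are close relatives whose probes may share signal, fell with IL-4, by 1.12 and 1.17 in KO and by 1.44 and 1.67 in control cells. Serpinb6b, a serpin, fell with HDAC3 loss, by 1.30 under IL-4 (adjusted p = 0.00424) and 0.96 in vehicle (adjusted p = 0.0126). In all, of 12 tested inhibitors, 2 fell and 0 rose with HDAC3 loss under IL-4 (1.64% and 2.07% of all genes). In vehicle 1 fell and 0 rose (2.30% and 2.47%). With IL-4, 1 rose and 2 fell in either genotype. Cst7 is 1 of the 2 that fell under IL-4 and the 1 that rose with IL-4. It entered the test through the group where it was highest, so these counts are no result about the inhibitors as a set. Over all genes 1.19% rose and 1.03% fell in KO cells, and 2.81% and 2.90% in control cells.

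Among 10 genes of the mannose 6-phosphate pathway, 0 were called for HDAC3 loss under IL-4 (2.07% of all genes were higher and 1.64% lower). In vehicle 2 rose (2.47% of all genes). These were Igf2r, the large mannose 6-phosphate receptor (0.39, adjusted p = 0.0478), and Sort1, a sorting receptor for saposin precursors and other cargo (1.66, adjusted p = 0.0194). Sort1 also rose with IL-4 in control cells (1.5, adjusted p = 0.0268). Its levels were 0.64, 0.70 and 0.15 in KO IL-4, -0.17, -0.97 and -0.48 in control IL-4, -0.42, -0.20 and -0.54 in KO vehicle and -1.61, -3.19, -1.73 and -1.65 in control vehicle cells, so that the control vehicle arrays were lowest and most spread. Without array 5 or 6 the Sort1 call for HDAC3 loss was lost, and without array 9 or 12 that for IL-4. Of 13 tested relatives and regulators of TFEB, 0 were called between genotypes. With IL-4, Tfec, a macrophage-restricted relative, rose in both KO (0.73, adjusted p = 0.0186) and control cells (0.78, adjusted p = 0.00385), and Mitf rose in control cells (0.62, adjusted p = 0.0280). Tfec held its control call under all 26 alternatives, and its KO call was lost without array 6, 7, 13 or 14. The Mitf call was lost in 12 of 26 alternatives, among them the mean of its probes (0.38, adjusted p = 0.672) and leaving out array 1, 2, 3, 10 or 12. The Igf2r call was lost in 19 of 26, among them leaving out any 1 array other than 7 or 14.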

How the data were processed

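RNA of 13 macrophage samples was amplified (Ovation V2), labelled with Cy3 and hybridised to Agilent 1-colour arrays, per the labels. The intensity values used are the processed signals of the deposited scanner files, background-corrected by Feature Extraction 10.5.1.1 per the file headers (the submitters' processing notes name 9.53). The authors' deposited table of intensities (39280 rows, 94 missing values), put on the log2 scale here, served as an alternative. How it was normalized is not given in the sources used here. Its columns, on the log2 scale, correlated with the scanner values at 0.9995 or above.

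Of 41174 non-control probes, 101 were left out as outliers and 29059 were kept, those that some group had well above background on each of its arrays. Probes were named from the files and from RefSeq's gene table (80.3% had a symbol of that table), and the brightest kept probe stood for a gene. Of the members, 25 had 1 probe and 28 several. The log2 intensity minus the array's 75th percentile entered a linear model in limma 3.58.1 (R 4.3.3), with 1 mean for each group over all 13 arrays and moderated two-sided tests. A gene was called at a p under 0.05 after adjusting over 20546 genes (Benjamini-Hochberg). The procedure was tested on simulated data with independent noise for each gene and array. Such data cannot show what follows where members move together by array. The number of arrays limits the precision.

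The members and all lists were chosen with earlier results of these data known. Members called in any of the 5 comparisons, all cathepsins and Tfeb, and the lowest p-values in classes with few calls are given by array. The 26 alternatives changed background correction, scaling, filter, probe choice, variance model, slide and the arrays used. Promoter windows are RefSeq's (GRCm38.p6), and probe positions are mm9, per the file headers.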

Additional observations from a re-analysis of the deposited data

Results flagged for a closer look

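In the control vehicle group, the only group of 4 arrays, 54 sets of values were tested for an array lying far from the others (gap over range against Dixon's 95% critical value), and 4 members passed. Chance gives about 1 in 20. Gla, alpha-galactosidase, had a ratio of 0.878, with array 2 at 3.94 and the other arrays from 4.22 to 4.26. Idua, alpha-iduronidase, had a ratio of 0.942, with array 4 at -2.78 and the others from -2.14 to -2.10. Scarb2, the carrier of glucocerebrosidase, had a ratio of 0.83, with array 2 at -1.29 and the others from -1.04 to -0.99. Cd68, a macrophage membrane glycoprotein, had a ratio of 0.92, with array 2 at 5.80 and the others from 5.91 to 5.92. None of the 4 was called in any comparison.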

How the results depend on the processing

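The members called higher with HDAC3 loss in vehicle (5) numbered 9 with array weights, 8 with normexp and quantile normalization, and 2 each with median scaling, no filter, slide as a fixed block, or without the 2 arrays with the lowest share well above background (control vehicle 4 and KO IL-4 15). Leaving out 1 array gave 2 to 6. Called lower (0) became 1 each with the authors' values (Cln3), normexp (Cd68), trend and robust variance (Ids), or without those 2 arrays (Idua), and 0 to 0 with 1 array left out. With HDAC3 loss under IL-4, the 5 called higher numbered 9 with array weights, 2 each with median scaling, no filter or without those 2 arrays, 3 with slide as a fixed block and 1 with only the groups compared, with 2 to 5 leaving out 1 array. For IL-4 in KO cells, called higher (1) became 2 with normexp or trend and robust variance and 0 with only the groups compared (1 to 2 leaving out 1 array), and called lower (1) became 2 with array weights, the authors' values or normexp, 3 with trend and robust variance and 0 with only the groups compared. For IL-4 in control cells, called higher (3) became 10 with array weights, 7 with normexp, 6 with trend and robust variance, and 5 with the authors' values, quantile normalization or probes well above background on all arrays (2 to 5 leaving out 1 array), and called lower (2) became 5 with array weights. Calls over all 20546 genes moved as well. With HDAC3 loss in vehicle, 507 higher and 473 lower became 1427 in either direction with normexp and 521 with median scaling. With HDAC3 loss under IL-4, 426 and 337 became 1099 and 424. For IL-4 in KO cells, 244 and 212 became 820 and 284, and in control cells 577 and 596 became 1664 and 701. With the authors' values they were 1246, 860, 588 and 1434 in the same order, and with quantile normalization 1248, 868, 571 and 1423. For array weights and the other alternatives such counts are not given. The member counts under those settings therefore cannot be set beside a share over all genes. The interaction of Arsb turned to -0.061 with the mean of its probes. Among the values of single genes and class medians, 2028 counted as unchanged, 226 lost a call, 47 gained one, 1 reversed and 1 median moved. A gene counted as unchanged where it kept its direction and side of the threshold. A class median did so where it moved by less than the class's median SE, whatever its sign. The causes were not tested. No paired analysis was possible because the groups share no replicate numbers, and slide was the block used instead. The slide as a random block had a correlation of 0.037. Dim members, such as Tfeb, are limited by signal over background.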
